A study of Mus musculus with 16 samples.

Results

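Skeletal muscle sarcomere genes were read out in RNA of the mouse retinal pigment epithelium (RPE), the pigmented layer between the photoreceptors and the choroid. The set holds 35 genes, given by symbol and matched to Ensembl identifiers, of 51912 genes in the deposited count table, and all 35 were found. By role they are 11 thick filament genes, 10 thin filament genes, 7 genes of titin and the Z-disc, and 7 genes of calcium handling and energy supply. By fibre type, 13 encode fast isoforms, 6 encode slow isoforms, 3 are extraocular or developmental myosin heavy chains and the rest are used by both fibre types.

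The study compared male C57BL/6 mice of 40 weeks of 2 genotypes, wild type and knockout of the succinate receptor gene Sucnr1, each without or with hydroquinone, an oxidant. Each of the 4 groups had 4 libraries, and each library was 1 eye. By the sample titles the 4 untreated wild-type libraries came from 2 mice, the 4 hydroquinone wild-type libraries from 4 mice, the 4 untreated knockout libraries from 3 mice and the 4 hydroquinone knockout libraries from 4 mice. The knockout's construction and the route, dose and length of the hydroquinone exposure are not given in the sources used here. Per the labels' protocols the RPE was lifted off the choroid with forceps once cornea, iris and lens were cut away and the retina peeled off.

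A sarcomere is the repeating unit of striated muscle. Myosin heavy chains with their light chains form the thick filament, actin with tropomyosin and the troponin complex forms the thin filament, titin and nebulin run along them, and the Z-disc anchors them. Each protein has isoforms typical of fast or slow fibres. The muscles that move the eye insert on the sclera outside the choroid and are unusual in using, beside the limb isoforms, the superfast heavy chain Myh13, the embryonic heavy chain Myh3 and the neonatal heavy chain Myh8 in adult life. RPE cells have no sarcomeres.

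Library totals ran from 21113549 to 35332444 counts. Levels are counts per 1000000 counts (CPM) with library sizes scaled by TMM, a method that sets the bulk of genes equal between libraries. The summed level of 12 RPE genes was high in every library, from 21230 to 33580 CPM, a 1.58-fold range. Genes of other tissues of the eye varied more, with rod photoreceptor genes at 252.0 to 23530 CPM, corneal epithelium genes at 3361 to 27660 CPM and myelin genes at 121.0 to 9874 CPM. Sucnr1 itself had 10, 17, 0 and 1 counts in the untreated wild type, at most 1 count in the hydroquinone wild type and at most 3 counts in a knockout library, so it was too low to check the genotype labels. Library identifiers came in a form with a letter (7 libraries) and a form without (9 libraries), which may or may not mark separate preparations.

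Most heavy chain genes of the set lie in 1 cluster on mouse chromosome 11 (GRCm38, GENCODE vM21), in the order Myh3, Myh2, Myh1, Myh4, Myh8, Myh13, spanning 293.3 kb from 67078300 to 67371586. The slow heavy chain Myh7 lies apart, on chromosome 14 at 54970684 to 54994626. RefSeq (GRCm38.p6) gave the 250 bases before the first listed start for 29 members. The 4 neighbouring fast and neonatal chains Myh2, Myh1, Myh4 and Myh8, picked for their position, had 1 run of 12 or more bases common to all of their windows, TTCTAATTATATCC (14 bases). On either strand it was found in 4 of 27025 windows of all genes, 0.0148%, which are these 4. The window of 3 fast heavy chains is printed with the windows of Myh13 and Myh3, the chains whose log2 level relative to the sum of the other members varied most over the libraries (SD 1.30 and 1.03). Capitals mark the shared run and the box TATAAA on the printed strand, which is + for all.
Myh2, chr11:67170777-67171026: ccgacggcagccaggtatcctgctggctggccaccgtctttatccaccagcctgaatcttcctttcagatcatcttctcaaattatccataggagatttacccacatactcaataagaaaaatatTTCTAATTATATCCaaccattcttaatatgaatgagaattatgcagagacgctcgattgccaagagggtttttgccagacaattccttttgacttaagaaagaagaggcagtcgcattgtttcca
Myh1, chr11:67199852-67200101: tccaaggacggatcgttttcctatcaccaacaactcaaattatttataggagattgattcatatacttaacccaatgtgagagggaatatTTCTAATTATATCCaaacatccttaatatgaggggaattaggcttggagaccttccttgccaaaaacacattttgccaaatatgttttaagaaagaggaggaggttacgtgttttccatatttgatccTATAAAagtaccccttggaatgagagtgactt
Myh4, chr11:67237562-67237811: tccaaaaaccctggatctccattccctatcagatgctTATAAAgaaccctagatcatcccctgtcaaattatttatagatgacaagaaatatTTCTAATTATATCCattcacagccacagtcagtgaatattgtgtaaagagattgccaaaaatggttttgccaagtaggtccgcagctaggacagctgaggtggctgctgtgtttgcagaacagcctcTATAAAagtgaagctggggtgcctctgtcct
Myh13, chr11:67326853-67327102: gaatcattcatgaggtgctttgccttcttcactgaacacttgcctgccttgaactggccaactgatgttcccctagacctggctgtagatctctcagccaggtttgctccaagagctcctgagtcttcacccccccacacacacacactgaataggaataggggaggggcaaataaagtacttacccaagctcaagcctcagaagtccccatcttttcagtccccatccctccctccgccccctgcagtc
Myh3, chr11:67078050-67078299: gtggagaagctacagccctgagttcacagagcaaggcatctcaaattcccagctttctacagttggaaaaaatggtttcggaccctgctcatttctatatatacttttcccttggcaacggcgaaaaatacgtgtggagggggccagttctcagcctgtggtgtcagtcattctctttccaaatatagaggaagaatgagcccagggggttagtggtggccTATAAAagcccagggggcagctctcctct
The windows of Myh13 and Myh3 lack the shared run. The Myh13 window lies inside the GENCODE gene, which starts at 67321658, so the bases before that start were not searched. On either strand, TATAAA was found in 7 of 29 members' windows (24.1%) and in 12.97% of all 27025 windows. The E-box CANNTG was found in 24 of 29 (82.8%) and in 66.04% of all, and it can overlap other motifs. The MEF2 box YTAWWWWTAR (Y is C or T, W is A or T, R is A or G) was found in 5 of 29 (17.24%) and in 3.008% of all. Those with it include the neighbours Myh1, Myh4 and Myh8, whose windows share sequence. The CArG box CCWWWWWWGG was found in 4 of 29 (13.79%) and in 1.399% of all.

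All 35 genes were detected in all 16 libraries, and all passed the filter of a mean of at least 1 CPM. Per kilobase of transcript, the highest were Tnnt3, the fast troponin T, at a median of 440.1 CPM per kb, Mylpf, the fast regulatory light chain, at 414.2 CPM per kb, and Tnnc2, the fast troponin C, at 401.4 CPM per kb. The lowest were the slow essential light chain Myl3 at 1.89 CPM per kb and titin, Ttn, at 1.48 CPM per kb, the latter over a transcript of 106.82 kb. The 35 genes held between 0.332% (95% Clopper-Pearson interval 0.33% to 0.334%) and 1.16% (1.16% to 1.17%) of a library's counts. Those intervals cover counting error only.

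The summed level of the 35 genes was 10852, 10432, 7493.6 and 4926.0 CPM in untreated wild-type replicates 1 to 4. It was 5993.5, 5626.1, 7040.8 and 5958.3 CPM in the hydroquinone wild type, 11756, 3922.0, 3569.8 and 5581.6 CPM in the untreated knockout and 10109, 3806.7, 3306.1 and 4181.6 CPM in the hydroquinone knockout. Untreated wild-type replicates 1 and 2, untreated knockout replicate 1 and hydroquinone knockout replicate 1 were the 4 highest libraries, and every pair of groups overlapped. The range over the libraries was 3.56-fold. Group means were 8426 ± 2771 (SD, n = 4), 6155 ± 613.5, 6207 ± 3802 and 5351 ± 3192 CPM in the same order. The hydroquinone wild type had the smallest SD and neither of the extremes. By identifier form, the median was 7041 CPM in the 9 libraries without a letter and 4926 CPM in the 7 with one. In bulk RNA, fewer muscle cells and less muscle RNA per cell cannot be told apart.

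**Figure D1:**
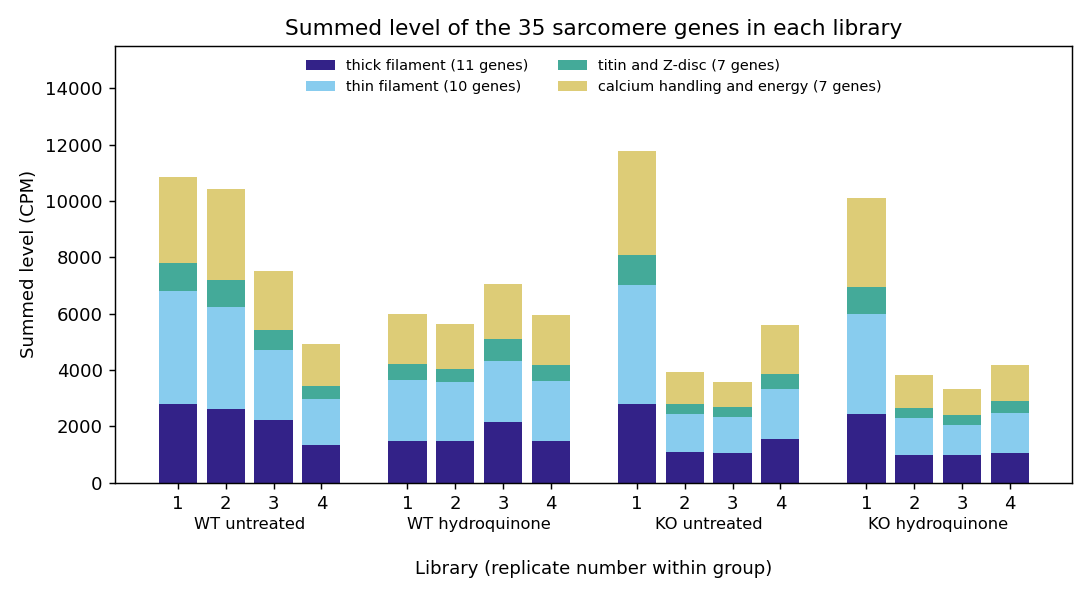
Bars give the summed level of the 35 genes (CPM, TMM-scaled) in each library, stacked by role, for wild type (WT) and Sucnr1 knockout (KO). The 4 highest libraries lie in 3 groups, and all 4 roles are taller in them.

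Most genes, but not all, shared the same high and low libraries. Over the 16 libraries, the log2 level of a gene and of the sum of the other 34 had a Pearson r above 0.9 for 18 genes, above 0.8 for 23 and above 0.5 for 31 of 35. The points share a library, a depth and in some cases a mouse, so the r is given as a description. The highest values, 0.98 each, belonged to Acta1, skeletal alpha-actin, and to the fast troponin genes Tnnt3 and Tnnc2. The lowest belonged to Myh3 (-0.22), Myh7 (0.25), the slow troponin T gene Tnnt1 (0.40) and the slow troponin I gene Tnni1 (0.43). The r was 0.58 (Myh2) to 0.98 for the fast isoforms and below 0.58 for 4 of the 6 slow isoforms. The sum weights these classes unequally: fast isoforms made up a mean of 3942 of 6535 CPM and slow isoforms 83.51 CPM. The part of this weighting in the higher r of the fast genes was not tested.

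**Figure D2:**
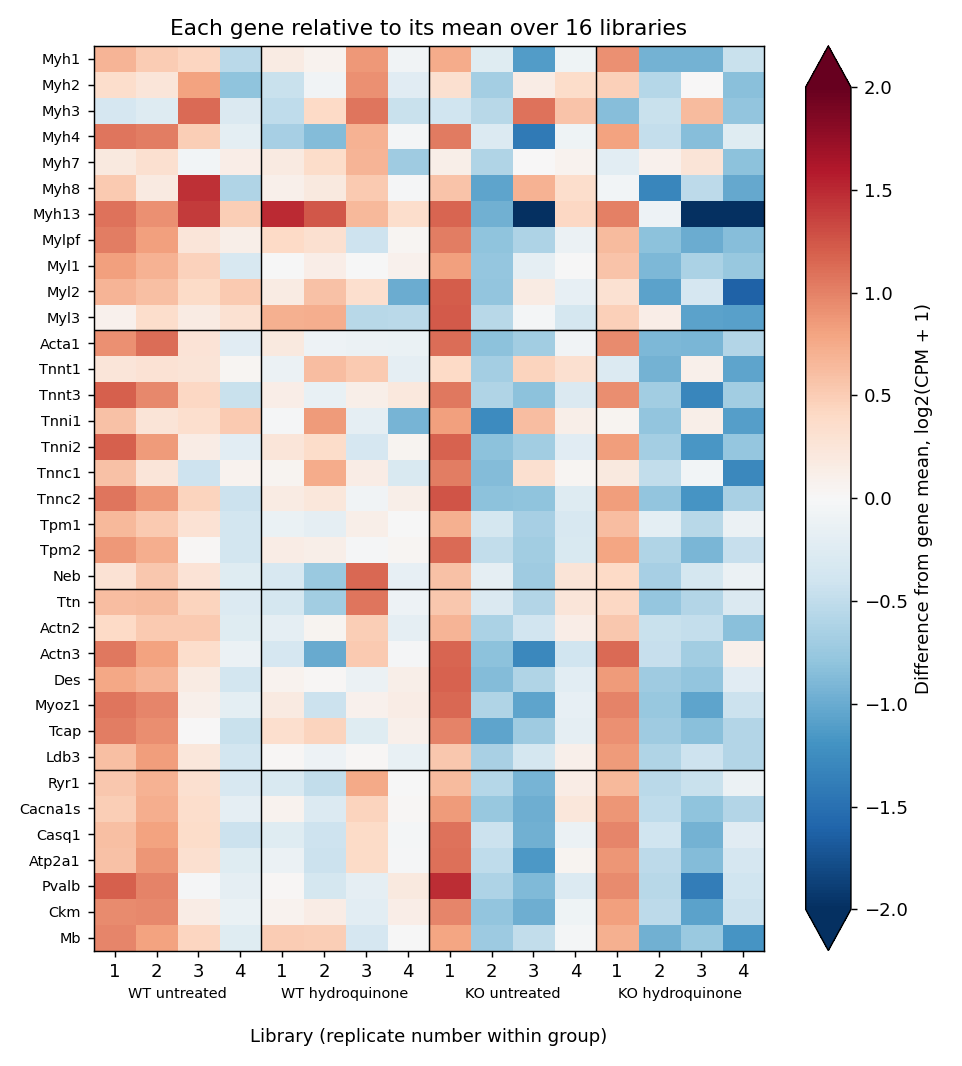
Colour gives each gene's difference from its own mean over the 16 libraries, in log2(CPM + 1), with genes in rows by role and libraries in columns by group. Most rows share the red columns of the libraries with a high sum, while Myh3, Myh13 and several slow isoforms depart from them.

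Among the thick filament genes, Myh4, the fastest limb heavy chain (type 2B), had 1172, 1135, 787.7 and 489.0 CPM in the untreated wild type. Its levels were 353.8, 306.9, 908.2 and 541.8 CPM in the hydroquinone wild type, 1145, 464.3, 208.9 and 525.8 CPM in the untreated knockout and 983.3, 400.9, 308.3 and 472.9 CPM in the hydroquinone knockout. The highest libraries were those with a high sum, and all groups overlapped. Per kilobase, Myh4 was the main heavy chain in 15 of 16 libraries, with a median share of 59.8% of the 7 heavy chain genes and a range of 33.2% to 68.5%. Myh1, the type 2X chain, followed with a median share of 17.3% (13.2% to 25.2%). Myh2, the type 2A chain, had 5.78% (4.36% to 11.1%) and the slow chain Myh7 had 1.59% (0.95% to 3.21%).

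In the troponin and light chain pairs the slow gene was the smaller part in every library. Of the sum of the slow and fast genes per kilobase, the slow gene had a median of 2.86% for troponin C (Tnnc1, range 1.71% to 6.72%), 2.29% for troponin I (Tnni1, 1.27% to 6.67%) and 5.39% for troponin T (Tnnt1, 2.75% to 14.9%). For the regulatory light chains the slow gene Myl2 had 2.13% (0.982% to 3.88%), and for the essential light chains the slow gene Myl3 had 0.65% (0.167% to 1.58%). The highest slow shares of troponin C, troponin I and the regulatory light chain were in untreated knockout replicate 3, a library with a low sum. The summed fast isoforms ranged 4.16-fold over the libraries, from 1792 to 7461 CPM. The slow isoforms ranged 3.67-fold, from 33.75 to 124.0 CPM. In the alpha-actinins, which cross-link actin at the Z-disc, Actn2, used by both fibre types, had 32.3% (19.7% to 50.6%) beside the fast-fibre gene Actn3, and exceeded it in hydroquinone wild-type replicate 2.

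Myh13, the superfast extraocular heavy chain, lies at chromosome 11, 67321658 to 67371586. It had 74.63, 65.91, 92.84 and 48.84 CPM in the untreated wild type and 98.62, 83.03, 54.75 and 44.13 CPM in the hydroquinone wild type. It had 79.03, 17.20, 7.31 and 46.12 CPM in the untreated knockout and 70.77, 32.20, 2.62 and 1.62 CPM in the hydroquinone knockout. All 8 wild-type libraries lay at 44.13 CPM or above, and 5 of 8 knockout libraries lay below that, while the other 3 fell among the wild-type values. Those 5 knockout libraries were also the 5 with the lowest summed level of the set. Its range of 60.8-fold was the widest of the 35 genes, and the lowest library, hydroquinone knockout replicate 4, still held 38 counts. Its share of the heavy chains per kilobase ran from 0.224% in that library to 12.1% in hydroquinone wild-type replicate 1, with a median of 4.5%. By identifier form, Myh13 had a median of 74.63 CPM without a letter (17.20 to 98.62) and 44.13 CPM with one (1.62 to 65.91).

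Myh3, the embryonic heavy chain, had 79.42, 83.65, 221.3 and 82.19 CPM in the untreated wild type and 70.27, 132.3, 212.7 and 73.69 CPM in the hydroquinone wild type. It had 76.11, 67.81, 215.5 and 150.6 CPM in the untreated knockout and 55.57, 73.36, 155.7 and 57.76 CPM in the hydroquinone knockout. In each group 1 or 2 libraries stood at 132.3 CPM or above and the others at 83.65 CPM or below, and none of these libraries was among the 4 with the highest sums. In untreated knockout replicate 3, where Myh4 was lowest, Myh3 held 34.2% of the heavy chains per kilobase, above Myh4 at 33.2%. The Myh3 share was 3.53% in hydroquinone knockout replicate 1 and had a median of 9.52%. Myh8, the neonatal chain, had 24.10, 18.80, 46.93 and 10.53 CPM, then 17.66, 18.95, 23.96 and 16.10 CPM, 25.02, 7.39, 27.41 and 21.23 CPM, and 15.76, 6.05, 11.19 and 7.55 CPM in the same order of groups. All 4 hydroquinone knockout libraries lay below all 4 hydroquinone wild-type libraries for Myh8. Its share had a median of 1.41% (0.889% to 4.27%).

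**Figure D3:**
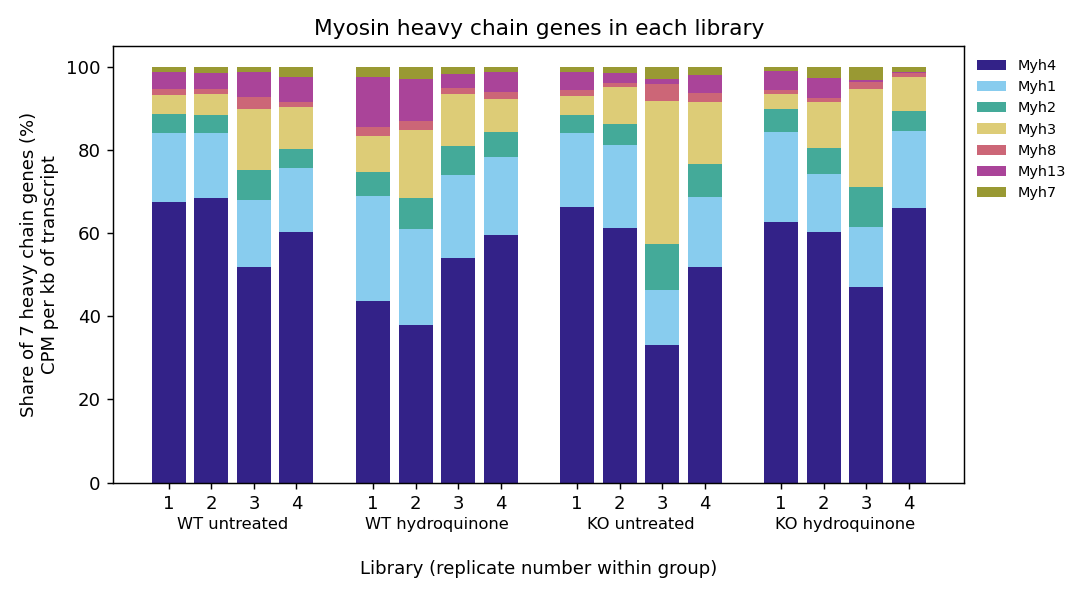
Bars give each library's share (%) of the 7 heavy chain genes, from CPM per kb of transcript. Myh4 is the main part in all libraries but untreated knockout (KO) replicate 3, where Myh3 reaches 34.2% and Myh4 33.2%.

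The gene outside the set whose level was most like that of Myh3 over the 16 libraries was Myh15, a heavy chain found in extraocular muscle, at r of 0.953, chosen after its values were seen. Myh15 had 55.92, 59.54, 137.1 and 59.51 CPM in the untreated wild type and 50.87, 65.64, 180.7 and 63.07 CPM in the hydroquinone wild type. It had 54.11, 64.81, 142.9 and 101.3 CPM in the untreated knockout and 34.94, 50.64, 117.3 and 40.23 CPM in the hydroquinone knockout. Replicate 3 was the highest library of its group for both genes in all 4 groups, replicate numbers being names only. The heavy chains share coding sequence. Of the distinct 50-base windows of a gene's transcripts, 25.4% in Myh1, 22.9% in Myh2 and 18.9% in Myh4 also occurred in another gene, against 8.26% in Myh13 and 4.76% in Myh3, so counts of the fast chains could be split between them.

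**Figure D4:**
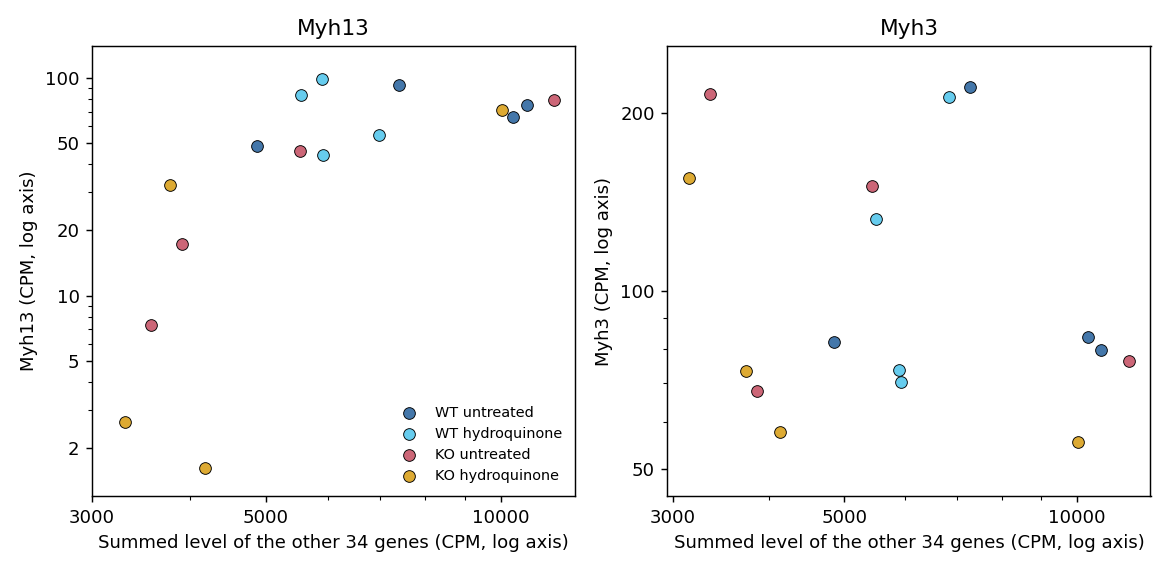
Each point is a library: x, the summed level of the other 34 genes (CPM, log axis), and y, the level of Myh13 or Myh3 (CPM, log axis), coloured by group (WT, wild type; KO, Sucnr1 knockout). Myh13 is lowest in the 5 knockout libraries with the lowest sums, whereas Myh3 (r of -0.22) takes high values in libraries with a low or middle sum.

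Among the thin filament genes, Acta1 had 485.7, 557.7, 310.2 and 218.5 CPM in the untreated wild type and 292.8, 237.9, 236.8 and 234.1 CPM in the hydroquinone wild type. It had 556.2, 144.5, 157.7 and 245.0 CPM in the untreated knockout and 495.3, 136.4, 135.3 and 171.3 CPM in the hydroquinone knockout. The high and low libraries were again those of the sum. The fast troponin T gene Tnnt3 ran from 192.8 to 1092 CPM and the fast troponin C gene Tnnc2 from 121.3 to 665.7 CPM. The slow gene Tnnt1 had 36.54, 37.80, 36.95 and 31.56 CPM, then 28.13, 47.61, 44.43 and 26.93 CPM, 40.71, 18.83, 42.07 and 38.47 CPM, and 25.32, 15.48, 33.00 and 14.25 CPM in the same order of groups. Its values in the untreated wild type were close to each other, unlike those of Tnnt3. Nebulin, Neb, which runs along the thin filament, had its highest level, 216.6 CPM, in hydroquinone wild-type replicate 3, as did Ttn at 377.8 CPM. The tropomyosins Tpm1 and Tpm2, which block actin's myosin sites at rest, ran from 196.0 to 508.9 and from 171.2 to 709.6 CPM. Both tropomyosins are also made by smooth muscle and other cells, as is desmin.

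At the Z-disc, Des, the intermediate filament gene desmin, ran from 56.80 to 238.0 CPM and Tcap, the titin cap, from 45.65 to 196.4 CPM. Myoz1, a calcineurin-binding protein of fast fibres, ran from 23.07 to 110.0 CPM and Ldb3 from 24.78 to 71.79 CPM. Among the calcium and energy genes, Atp2a1, the fast-fibre calcium pump of the sarcoplasmic reticulum, had the highest median level in CPM. Per kilobase, Mb (225.5) and Pvalb (215.8) were above Atp2a1 (206.7 CPM per kb). It had 1135, 1396, 941.5 and 640.1 CPM in the untreated wild type, 697.4, 558.4, 979.4 and 739.6 CPM in the hydroquinone wild type, 1613, 527.7, 341.0 and 782.2 CPM in the untreated knockout and 1399, 524.0, 412.8 and 597.7 CPM in the hydroquinone knockout. The groups overlapped. Pvalb, a calcium buffer of fast fibres, ran from 90.65 to 669.0 CPM. Ckm, muscle creatine kinase, ran from 150.4 to 624.5 CPM and Mb, myoglobin, from 111.3 to 497.6 CPM. The calcium release channel Ryr1, its voltage sensor Cacna1s and the calcium store protein Casq1 ran from 43.65 to 142.6, 19.20 to 72.25 and 27.74 to 117.7 CPM.

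Pairs of eyes of 1 mouse were present for 3 mice. In 1 untreated wild-type mouse the summed level was 10850 CPM in the right eye and 10430 CPM in the left, 1.04-fold apart, and 21 of 35 genes were higher on the right. In the other it was 7494 CPM right and 4926 CPM left, 1.52-fold apart, with 30 genes higher on the right. In the untreated knockout mouse it was 3570 CPM right and 11760 CPM left, 3.29-fold apart, with 32 genes higher on the left by up to 10.8-fold, for Myh13. Eyes of that mouse thus differed nearly as much as the lowest and highest of all 16 libraries. In each of the 3 mice the eye with the higher sum was the library without a letter in its identifier, and the other had a letter. Differences between eyes and between identifier forms therefore cannot be told apart in these mice. The 3 genes higher in its right eye were Myh3 (2.83-fold), Myh8 (1.10-fold) and Tnnt1 (1.03-fold). Its fast isoforms were 3.92-fold apart and its slow isoforms 1.25-fold.

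Gene length was a further axis. Relative to their own means, the 12 members over 5 kb exceeded the 16 members under 2 kb by a median of 0.82 log2 units in hydroquinone wild-type replicate 3, and fell short of them by 0.43 in replicate 2 of that group. The same difference over 3171 long and 3340 short genes outside the set was 0.48 and -0.48 in these libraries. Hydroquinone wild-type replicate 3 was also the library with the highest Ttn and Neb levels. The members' difference was lowest in untreated knockout replicate 1, at -0.49, where Ttn was at 261.4 CPM and Neb at 146.0 CPM. Whether Ttn and Neb followed the difference over the libraries was not tested, nor was the part of fragment length or RNA quality in it.

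Hydroquinone against no treatment within the wild type gave 0 of 35 members with an adjusted p under 0.05 (edgeR quasi-likelihood test, Benjamini-Hochberg over all 15380 genes tested), against 0.0065% of all genes. At an unadjusted p under 0.05 it was 0 members, against 4.28% of all genes. No member's groups were without overlap (0 higher and 0 lower with hydroquinone), against 1.14% and 1.78% of all genes. The median log2 fold change of the members was -0.37, with 31 of 35 below 0, beside -0.00 over all genes tested. Myh4 had the smallest p, at a log2 fold change of -0.76 with an SE of 0.50 (edgeR adjusted p = 0.994), and Acta1 followed at -0.65 (SE 0.48, edgeR adjusted p = 0.994). The other skeletal muscle genes, 35 further genes of the contractile and calcium apparatus such as the M-band gene Myom1, had 33 of 35 below 0 and a median of -0.39, none past the test. Markers of some other tissues also had values below 0, with a median of -2.27 for fat (7 of 7 genes below 0), -3.13 for myelin (6 of 6) and -0.82 for rods (12 of 12), while corneal epithelium was at 0.70 and RPE at 0.04. No gene of these lists passed the adjusted threshold in this or any later comparison, and their part in the members' values was not tested.

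Within the knockout, hydroquinone again gave 0 of 35 members, against 0.0455% of all genes. At an unadjusted p under 0.05 it was 2 members, both lower with hydroquinone, against 2.96% of all genes. They were Tnnt1, at a log2 fold change of -0.67 with an SE of 0.29 (edgeR adjusted p = 1), and Myh8, at -0.996 (SE 0.45, edgeR adjusted p = 1). No member's groups were without overlap (0 higher and 0 lower), against 1.18% and 0.722% of all genes. The median was -0.23 with 32 of 35 below 0. It was 0.29 without untreated knockout replicate 1, so the direction of the median changed without that library. It was -0.74 without hydroquinone knockout replicate 1, in the same direction but farther from 0. Other tissues had medians of 1.21 for fat (0 of 7 below 0), 0.32 for smooth muscle (0 of 9 tested), -0.65 for myelin (6 of 6) and -0.34 for rods (12 of 12).

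Knockout against wild type without treatment gave 0 of 35 members, against 0% of all genes, and 0 members at an unadjusted p under 0.05, against 1.32%. No member's groups were without overlap (0 higher and 0 lower in the knockout), against 0.384% and 0.67% of all genes. The median was -0.37 with 32 of 35 below 0. Mb, at -0.55 (SE 0.43, edgeR adjusted p = 1), and Ckm, at -0.56 (SE 0.44, edgeR adjusted p = 1), had the smallest p. Without untreated knockout replicate 1 the median was -0.88 and 17 members had an unadjusted p under 0.05, none of them past the adjusted threshold. The share of all genes at that unadjusted p was not counted in that run, so the 17 has no background. Fat genes had a median of -2.11 (7 of 7 below 0), myelin genes -0.69 (6 of 6), smooth muscle genes -0.31 (9 of 9 tested) and rod genes 0.46 (0 of 12). The untreated wild type, from 2 mice, also served in the comparison of hydroquinone within the wild type.

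Knockout against wild type under hydroquinone gave 0 of 35 members, against 0% of all genes. At an unadjusted p under 0.05 it was 1 member, against 4.18% of all genes. That was Tnnt1, at -0.74 (SE 0.29, edgeR adjusted p = 1), followed by Myh8 at -0.92 (SE 0.44, edgeR adjusted p = 1). Myh8 was the 1 member whose groups did not overlap, lower in the knockout, against 0.605% of all genes in that direction; 0 were higher without overlap, against 1.72%. The median was -0.29 with 30 of 35 below 0. It was 0.03 in the libraries without a letter in their identifier and -0.72 without hydroquinone knockout replicate 1, where 11 members had an unadjusted p under 0.05. The share of all genes at that p was not counted in that run. With no library left out, fat (1.42), myelin (1.76) and rod genes (0.88) had medians above 0, with 0 genes below it, and corneal epithelium genes were at -0.95 (6 of 6 below 0).

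Averaged over genotype, hydroquinone gave 0 of 35 members, against 0.0845% of all genes, and 1 member, Myh8, at an unadjusted p under 0.05, against 5.72%. For Myh8 it was -0.69 on the log2 scale, with an SE of 0.31 (edgeR adjusted p = 0.868). The values were -0.44 for Acta1 (SE 0.34), -0.44 for Mylpf (SE 0.30) and -0.24 for Myh13 (SE 0.63), with edgeR adjusted p of 0.914, 0.914 and 0.962. The slow light chain Myl2 was at -0.68 (SE 0.36, edgeR adjusted p = 0.901). The median of the members was -0.30, with 34 of 35 below 0. It was -0.27 for fat (7 of 7), -1.90 for myelin (6 of 6) and -0.60 for rods (12 of 12).

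Averaged over treatment, knockout against wild type gave 0 of 35 members, against 0% of all genes, and 0 at an unadjusted p under 0.05, against 2.96%. All 35 fold changes were below 0, with a median of -0.30. Myh13 was farthest from 0, at -1.15 (SE 0.63, edgeR adjusted p = 0.987). Acta1 was at -0.30 (SE 0.34), Mylpf at -0.50 (SE 0.30), Myh8 at -0.61 (SE 0.31) and Tnnt1 at -0.38 (SE 0.21), with an edgeR adjusted p of 0.987 each. The members rise and fall together over libraries, so the count below 0 is not a count of independent genes. In the libraries without a letter the median was -0.13, with 23 of 35 below 0. Corneal epithelium genes had a median of -0.57 (6 of 6 below 0), fat genes -0.38 (5 of 7), rod genes 0.68 and myelin genes 0.53.

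The interaction, the hydroquinone effect in the knockout minus that in the wild type, gave 0 of 35 members, against 0% of all genes, and 0 at an unadjusted p under 0.05, against 1.92%. The median was 0.09, with 13 of 35 below 0. Tnnt1 was at -0.71 (SE 0.41, edgeR adjusted p = 1) and Actn3 at 0.92 (SE 0.75, edgeR adjusted p = 1). The direction of the median was not stable: it was 0.64 without untreated knockout replicate 1 and -0.37 without hydroquinone knockout replicate 1. Fat genes had a median of 3.54 and myelin genes 2.48.

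**Figure D5:**
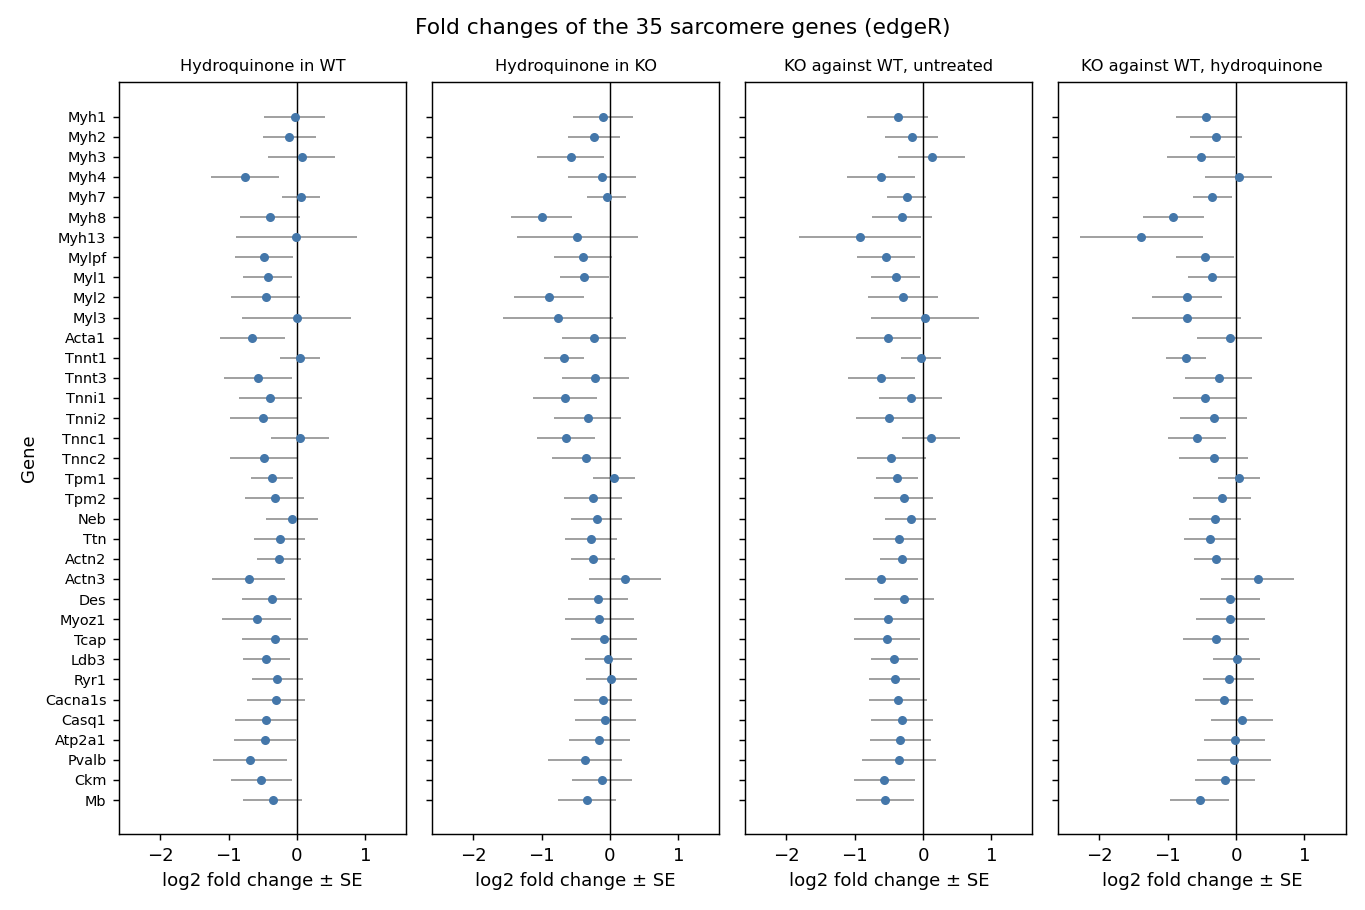
Points give the log2 fold change of each of the 35 genes in 4 comparisons (edgeR), with bars of 1 standard error; WT is wild type and KO is Sucnr1 knockout. Most points lie below 0, and none passed the adjusted threshold of 0.05.

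The genes outside the set that followed its sum most closely over the 16 libraries were Lrrc30 (r of 0.983), the Z-disc gene Myot (0.981), the muscle phosphorylase kinase subunit Phkg1 (0.978), the muscle ribosomal gene Rpl3l (0.972), Tbx15 (0.971), Sh3bgr (0.971), Srl (0.967), the reticulum calcium-binding gene Hrc (0.966), Myom1 (0.966) and the muscle glycolytic enzyme gene Pgam2 (0.965). The 35 further skeletal muscle genes had a median r of 0.9 with the sum, and 16 exceeded 0.9. The lowest, 0.25, was sarcolipin, Sln, an inhibitor of the calcium pump, which ran from 6.05 to 31.73 CPM.

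Summed levels of other tissues moved with the sarcomere sum to different degrees. The r over 16 libraries was 0.64 for 7 fat genes (46.16 to 739.2 CPM), 0.39 for myelin genes and 0.34 for rod genes. It was 0.14 for 10 scleral and connective tissue genes (1404 to 3331 CPM), 0.06 for corneal epithelium genes and -0.05 for 6 endothelial genes (135.7 to 460.0 CPM). It was -0.20 for 10 smooth muscle genes (424.2 to 1170 CPM) and -0.24 for RPE genes. The 8 cardiac genes had the higher r of 0.82 (17.58 to 79.45 CPM), and 3 of the 8 passed the filter. Among them Actc1, which eye muscle can also use, ran from 10.37 to 68.63 CPM. Nppa stayed at or below 0.197 CPM and Mybpc3 at or below 0.381 CPM. The part of these tissues in the group values above was not tested.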

How the data were processed

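RNA-seq of 16 RPE libraries from 13 mice was analysed. The authors deposited read counts for 51912 Ensembl genes. Its name announces FPKM, but all values are whole and totals differ, so they were used as counts. The submitters' processing notes name STAR, Cufflinks, DESeq2 and mm10, without role. The strand setting is not given in the sources used here, and 18 of the 35 genes overlap a gene on the other strand, so reads of the pair might not be told apart.

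Identifiers matched GENCODE vM21 or the gene name table for 51633 genes. All 4 groups entered 1 edgeR 4.0.16 quasi-likelihood model (R 4.3.3, TMM scaling, genes averaging 1 CPM or more, 15380 in number), with Benjamini-Hochberg adjustment and a threshold of 0.05. The model was also run on simulated counts of independent libraries in which randomly chosen genes were changed. Those counts had no shared mice and no genes rising and falling together, so that run cannot show how the model handles the members. Levels per kilobase use the longest protein-coding transcript. Correlations used log2(CPM + 1). The edgeR test gives no standard error, so each SE was back-calculated from its F statistic. It is the absolute log2 fold change divided by the square root of F.

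The labels' protocols state 4 animals per group, while the titles give 13 mice, and the titles were followed. Eyes of 1 mouse were treated as separate libraries in the main model. The correlation of eyes of 1 mouse within groups was -0.0202 over genes by limma's estimate. That estimate rests on the 3 mice with both eyes, whose eyes also differ in identifier form. It cannot show that eyes of 1 mouse are independent. The p-values measure the spread between these libraries. Replicates of a group differed by more than counting noise, with a chi-square per degree of freedom of at least 23.7. Totals of 21113549 to 35332444 counts limit precision less than the spread between libraries does.

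The members and lists were chosen with earlier results of these data known. Values per library were given for isoforms that differ by fibre type, fold changes for Acta1, Mylpf and Myh13 averaged and for the 2 members with the smallest p in each comparison, and outside genes by the 10 highest correlations with the sum; other outside genes were chosen after their values were seen. Alternatives were median-of-ratios scaling, plain totals, no filter, DESeq2 1.42.0, limma 3.58.1 with the mouse as a random block, summed eyes, the identifier form as a covariate or as a split, only the groups compared, and leaving out each library.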

Additional observations from a re-analysis of the deposited data

Results flagged for a closer look

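Levels (log2(CPM + 1)) and heavy chain shares of 45 measures were searched in the 4 groups, 180 sets of 4 libraries, for a library whose gap to the nearest exceeded Dixon's 95% critical share of its group's range. There were 11, and chance would flag about 1 in 20, or 9.0. In untreated wild-type replicate 3, Myh3 was high (gap ratio 0.95), as were the heavy chain shares of Myh2 (0.907) and Myh8 (0.872). In replicate 4 of that group Actn2 was low (0.838). In hydroquinone wild-type replicate 1 Acta1 was high (0.928), and in replicate 2 Myoz1 was low (0.839). In untreated knockout replicate 2 Tnnt1 (0.887) and Myh7 (0.856) were low. In hydroquinone knockout replicate 1 Mylpf (0.892), Ldb3 (0.875) and Tcap (0.855) were high, in the library with the highest sum of its group.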

How the results depend on the processing

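No member passed the adjusted threshold of 0.05 in any of the 7 comparisons or under any alternative run, while the count over all genes ran from 1 to 20 for hydroquinone in wild type (20 with DESeq2), 0 to 14 in the knockout, 2 to 39 averaged (39 with DESeq2) and 0 to 3 for knockout under hydroquinone. At an unadjusted p under 0.05 the members reached 9 for hydroquinone in the knockout, 17 for untreated knockout, 11 for knockout under hydroquinone, 13 for averaged hydroquinone and 16 for averaged knockout, each when untreated or hydroquinone knockout replicate 1 was left out. Shares of all genes at that unadjusted p were not counted in those runs. The members also rise and fall together, so these counts are given without a background. Averaged hydroquinone had a median of -0.08 without untreated knockout replicate 1, and averaged knockout -0.52 without hydroquinone knockout replicate 1. Fold changes that changed sign were Myh13 for averaged hydroquinone in libraries without a letter (0.0021), and from -0.82 to 0.091 when libraries were left out in turn, and Acta1 for averaged knockout in libraries without a letter (0.029); the cause was not tested. No paired analysis of treatment or genotype was possible, because each mouse with both eyes had them in the same group and replicate numbers pair nothing. The mouse as a random block gave 0 members in every comparison. Comparisons within libraries with a letter could not be made under hydroquinone, where the wild type has 1. The 2 mice of the untreated wild type and the spread between eyes of 1 mouse limit all comparisons.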

Other observations

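Myh6, the atrial heavy chain and the main partner of Myh7 in shared exon sequence, had 10.11 CPM (239 counts) in hydroquinone knockout replicate 2 and at most 0.677 CPM in every other library. Mybpc3, a cardiac gene, also had its highest value in that library, 0.381 CPM. Myh7b, a slow-tonic heavy chain of extraocular muscle, ran from 1.00 to 4.89 CPM. Myod1, a regulator of muscle cell fate, ran from 0.294 to 3.11 CPM with its highest value in untreated knockout replicate 1, the library with the highest sum of sarcomere genes. It is 1 of 8 listed muscle regulators, whose sum ran from 70.1 to 171.6 CPM and was highest in hydroquinone knockout replicate 1. Of the 5 regulators tested, 1 was below 0 for averaged knockout, with a median of 0.035. Ckmt2, a mitochondrial creatine kinase of muscle, and Actc1 were among the genes most like Myh13 over the 16 libraries, at r of 0.85 each, as was Ube2b at 0.851. These genes were chosen after their values were seen.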
